A study of Mus musculus with 9 samples.

Results

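Potassium channel genes are the members described here: the genes whose symbol in the gene annotation begins with Kcn, in the striatum of wild-type, heterozygous and homozygous Shank3B mutant mice. They were taken by symbol alone, by a rule that uses no measured value but was chosen with earlier results of these data known. Kcnj13, a marker of the choroid plexus, was left out. The table of 15464 genes held 87 of them, of which 78 passed a filter on low values, a normalized read count of 10 or more in 3 or more libraries, and were tested among 14239 genes. The mice were male littermates of the Shank3B line, in which exons 13 to 16 of Shank3, an excitatory postsynaptic scaffold, are targeted, and they were 10 to 12 weeks old on a C57BL/6J background. Wild-type (WT), heterozygous (HET) and homozygous knock-out (KO) groups held 3 mice each, with no other treatment, and the dissected striatum of 1 mouse gave 1 library of stranded poly(A) RNA sequencing. The mutation is in the germline and not limited to 1 cell type, and tissue-wide values average over all striatal cells. The question was which of these channel genes, by subfamily, differed in level between the genotypes.

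Potassium channels let potassium cross the cell membrane, and so help set the resting potential, the shape of the action potential and the firing rate of a neuron. Pore-forming subunits fall into the voltage-gated families (Kcna, Kcnb, Kcnc, Kcnd, Kcnh, Kcnq), the calcium- or sodium-activated families (Kcnma, Kcnn, Kcnt), the inward rectifiers (Kcnj) and the tandem-pore leak channels (Kcnk). Kcnu, a relative of Kcnma, was counted in the calcium- or sodium-activated class by that kinship and not by what opens it. Modifier subunits (Kcnf, Kcng, Kcns, Kcnv) join voltage-gated pores but do not conduct alone, and auxiliary subunits (Kcnab, Kcne, Kcnip, Kcnmb) carry no pore. Kcnrg, a regulator without a pore, was counted with the auxiliary subunits. In the medium spiny neuron, the projection neuron that makes up most of the striatum, inward rectifiers hold the cell at a very negative resting potential and a fast transient current of Kcnd channels with their Kcnip partners delays the first spike.

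The selectivity filter, the short stretch of the pore that picks potassium over sodium, separates pore-forming from auxiliary members at the level of sequence. The coding sequences were searched in frame, on the coding strand, for 5 codons in a row: threonine or serine, any residue, glycine, then tyrosine, phenylalanine or leucine, then glycine. A match was present in 72 of 87 members, including all 13 inward rectifiers, all 10 modifiers and all 8 calcium- or sodium-activated channels, and in 0 of the 15 auxiliary members. All 12 tandem-pore members held 2 matches, as did the voltage-gated Kcna6 and Kcnh2, each with 1 match of the leucine kind, and the other matching members held 1. Of 15295 other genes, 5.85% held a match, so the letters alone do not mark a channel. The stretches below are given 5′ to 3′ on the coding strand from the GENCODE annotation of GRCm38, with the 15 filter bases in capitals and 12 bases on either side. They are shown for leading members of several classes by level and for Kcnk9, a pore-forming member with an unadjusted p under 0.05 in KO against HET.

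Kcna1, chr6:126642216-126642254, minus strand: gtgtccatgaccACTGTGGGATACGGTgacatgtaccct
Kcnh3, chr15:99232917-99232955, plus strand: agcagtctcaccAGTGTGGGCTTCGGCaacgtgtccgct
Kcnf1, chr12:17175049-17175087, minus strand: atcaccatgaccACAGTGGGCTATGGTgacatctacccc
Kcnt1, chr2:25894355-25894393, plus strand: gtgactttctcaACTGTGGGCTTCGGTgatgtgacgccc
Kcnk1, second filter, chr8:126025317-126025355, plus strand: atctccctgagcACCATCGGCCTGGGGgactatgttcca
Kcnk9, second filter, chr15:72512707-72512745, minus strand: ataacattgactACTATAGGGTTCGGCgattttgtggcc

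The filters of Kcnh3, an ether-a-go-go type channel, and Kcnt1, the sodium-activated channel, have a phenylalanine codon in the fourth place, where a tyrosine codon stands in Kcna1 and Kcnf1. The second filter of Kcnk1 has a leucine codon there. All of these stretches lie within coding exons.

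The summed normalized read counts of the libraries lay between 30830019.8 and 33790296, a range set by the size factors of the study, and the sequencing depth behind them is unknown. Shank3 itself was at 7209, 8812 and 6043 in WT, 7575, 7098 and 8049.9 in HET and 10237, 10798 and 10578 in KO, but these sums run over the whole gene and so do not check the targeted exons. The paper also reports more total Shank3 transcript in KO and traces it to exons outside the targeted ones. The 8 medium spiny neuron markers, among them Drd1, Drd2 and Ppp1r1b, were all present in all 9 libraries, as the labelled tissue requires, and none was at 0. HET replicate 3 and KO replicate 3 stood apart from the other 7 libraries on the first principal component, which held 33.6% of the variance. WT replicate 3 and KO replicate 3 had the lowest summed medium spiny neuron markers, 54880 and 45872 against 70660 to 109976 in the other libraries, and the highest summed cortical neuron markers, 88460 and 90625 against 65367 to 85167.

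In WT striatum the potassium channel gene with the highest level per kilobase of exon was Kcnj4, an inward rectifier of the medium spiny neuron membrane, at 2710 ± 343 normalized counts per kilobase (SD, n = 3). Next in the order stood Kcnab2, a beta subunit of Kcna channels, at 2059 ± 188 per kilobase. Kcnip2, the calcium-binding partner of Kcnd channels, followed at 1945 ± 501 per kilobase and did not differ from Kcnab2 beyond its spread. Kcna1, an axonal delayed rectifier, stood at 1488 ± 44.6 per kilobase, within the spread of Kcnk1, a leak channel, at 1405 ± 117 per kilobase. Among pore subunits of the M-current, which restrains repetitive firing, Kcnq3 at 521 ± 65.6 per kilobase and Kcnq5 at a mean of 519 did not differ beyond their spread. With the longest transcript as the length, Kcnab2 ranked first and Kcnj4 second, so this order depends on which length is used.

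Within each class a few genes carried most of the level. Among inward rectifiers, Kcnj9, a subunit of G-protein-gated channels, stood at 1045 ± 29.1 per kilobase and Kcnj10, the main inward rectifier of astrocytes, at 1031 ± 139, whereas Kcnj2 stood at 212 ± 34.1 and Kcnj16, a partner of Kcnj10, at 126 ± 2.65. The highest Kcnd member was Kcnd2 at 780 ± 130 per kilobase. Of the calcium- or sodium-activated channels, Kcnt1 stood at 929 ± 173 per kilobase, above the calcium-activated large-conductance channel Kcnma1 at 124 ± 16.0 and the small-conductance channel Kcnn3 at 80.4 ± 22.7. The modifier subunit with the highest level was Kcnf1 at 1037 ± 71.0 per kilobase, followed by Kcnv1 at 585 ± 50.3. Voltage-gated pore subunits made up 34.8% ± 0.88 of the summed per-kilobase level of all members in WT, auxiliary subunits 24.1% ± 1.04, inward rectifiers 20.0% ± 0.44, modifiers 8.09% ± 0.34, tandem-pore channels 8.03% ± 0.27 and calcium- or sodium-activated channels 4.97% ± 0.43 (SD, n = 3).

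**Figure D1:**
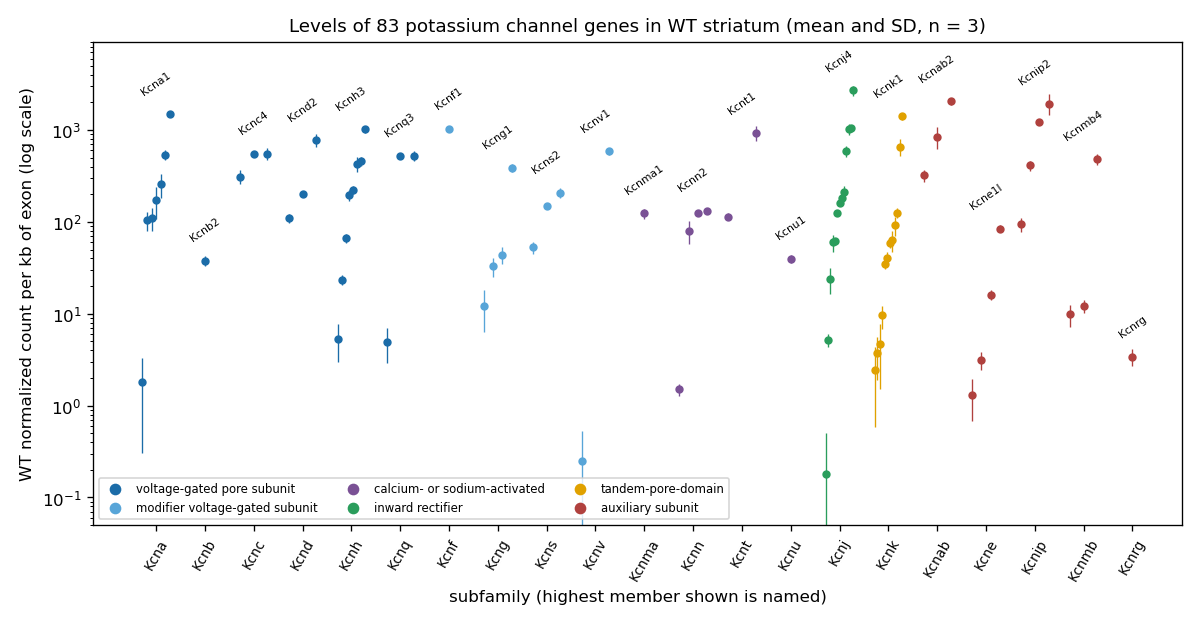
WT level of 83 of the 87 members (normalized counts per kilobase of exon, log axis; points are means and bars SD of 3 mice, and a bar that would pass below 0 runs to the edge), grouped by subfamily and coloured by class. Kcnj4, at 2710, is the highest point, and the Kcna, Kcnh, Kcnj and Kcnk subfamilies each spread over more than 2 orders of magnitude.

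The 9 members under the filter were Kcna10, Kcne2, Kcne3, Kcnj15, Kcnk7, Kcnk15, Kcnn4, Kcnrg and Kcnv2, with values from 0 to 14.7 normalized counts over the 9 libraries. Their normalized counts can be read only as low, and no fold change is given for them.

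In HET against WT striatum no potassium channel gene passed an adjusted p of 0.05. The smallest adjusted p over the 78 members tested was 0.999 (limma, Benjamini-Hochberg over 14239 genes), and the count over all genes tested was also 0. At an unadjusted p under 0.05 there were 3 members, which is 3.85% of those tested, beside 158 genes or 1.11% over all genes. These were Kcnmb2 and Kcng4 with higher values in HET, beside 0.604% of all genes, and Kcnip4 with lower values, beside 0.506%. Without HET replicate 3 and KO replicate 3 the count was 6 members, beside 1.93% of all genes. The median log2 fold change was 0.01 over the members and 0.00 over all genes. Above 0 lay 42 of 78 members, or 53.8%, against 49.3% of all genes, and 1 member lay past a 1.5-fold change.

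Kcnmb2 encodes a beta subunit that inactivates the large-conductance calcium-activated channel (ENSMUSG00000037610, chr3:31902507-32200180, plus strand). Its normalized counts were 31.8, 39.0 and 43.8 in WT, 64.1, 84.6 and 71.7 in HET and 45.1, 37.2 and 113 in KO. All 3 HET libraries lay above all 3 WT libraries, while in KO replicate 3 stood far above the other libraries of its group. The log2 fold change of HET against WT was 0.93 ± 0.37 (SE; unadjusted limma p = 0.0301, adjusted p = 0.999), and the exact permutation p of 0.1 is the smallest that 3 against 3 libraries can give. Against WT the KO value was 0.59 ± 0.37 (SE), and it was 0.11 without KO replicate 3, the library that decides it. The unadjusted HET p rose above 0.05 when WT replicate 1 or 2 or HET replicate 2 or 3 was left out, up to 0.0902. Over all single libraries left out the log2 fold changes ran from 0.80 to 1.03.

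Kcng4 encodes a silent modifier subunit of Kcnb channels (ENSMUSG00000045246, chr8:119623854-119635680, minus strand). It stood at 95.4, 128 and 153 normalized counts in WT, 206, 154 and 195 in HET and 197, 105 and 161 in KO. The lowest HET library barely exceeded the highest WT library, and the KO libraries spread over both groups. HET exceeded WT by 0.57 ± 0.26 on the log2 scale (SE; unadjusted limma p = 0.0490, adjusted p = 0.999, exact permutation p = 0.1), a value that ranged from 0.39 to 0.73 when single libraries were left out. The unadjusted p then rose above 0.05 without WT replicate 1 or 2, HET replicate 1 or 3 or KO replicate 3, up to 0.183 without WT replicate 1.

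Kcnip4, a calcium-binding partner of Kcnd channels (ENSMUSG00000029088, chr5:48389502-49524907, minus strand), was at 1353, 1423 and 1699 normalized counts in WT, 1120.2, 1372 and 1135 in HET and 1271, 1424 and 1481 in KO. HET replicate 2 reached into the WT range, so the groups overlapped. Its log2 fold change was -0.30 ± 0.12 (SE; unadjusted limma p = 0.0319, adjusted p = 0.999, exact permutation p = 0.2) in HET and -0.10 ± 0.12 in KO. WT replicate 3, one of the libraries with low medium spiny neuron markers, held the highest value, and without it the HET difference was -0.20 with an unadjusted limma p of 0.136. Without HET replicate 1 it was -0.25 and without HET replicate 3 -0.26, also with an unadjusted p above 0.05.

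Ranges of the 3 HET and 3 WT libraries did not overlap in 5 of 78 members, against 4.45% of all genes. Beside Kcnmb2 and Kcng4 these included Kcnd3, a pore subunit of the transient current, with lower values in HET (2.19% of all genes), and Kcns1, a modifier, with higher values (2.25% of all genes for that direction). Kcnd3 was at 2016, 1779 and 1986 normalized counts in WT and 1388, 1775 and 1630.0 in HET, a log2 fold change of -0.28 ± 0.14 (SE). Its lowest WT library barely exceeded its highest HET library. The log2 fold change of Kcns1 was 0.20 ± 0.15 (SE), so its libraries were separate but close.

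By class, the median log2 fold change in HET was -0.03 over 28 voltage-gated pore subunits, 0.04 over 9 modifiers, 0.06 over 12 auxiliary subunits, 0.00 over 12 inward rectifiers, 0.12 over 10 tandem-pore channels and -0.02 over 7 calcium- or sodium-activated channels. The widest class was the auxiliary one, from -0.30 for Kcnip4 to 0.93 for Kcnmb2. Among tandem-pore channels 8 of 10 members lay above 0, beside 49.3% of all genes. None of these channels had an unadjusted p under 0.05, and the sum of this class was highest in HET replicate 3.

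In KO against WT striatum again no member passed the adjusted threshold, with a smallest adjusted p of 0.999 (limma, Benjamini-Hochberg), and 0 of all genes did. These counts of 0 belong to the limma fit on normalized values. With DESeq2 on counts and another correction of the p-values, the paper called some genes in HET and in KO, Shank3 among those in KO. At an unadjusted p under 0.05 there was 1 member, or 1.28%, beside 117 genes or 0.822% over all genes. This was Kcnab3, with higher values in KO, a direction that held 0.386% of all genes. The median log2 fold change was 0.05 over the members and 0.00 over all genes, and 50 of 78 members, or 64.1%, lay above 0 against 51.6% of all genes. Without KO replicate 3 the members' median was -0.02, so the upward lean rests on that library.

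Kcnab3, a beta subunit of Kcna channels (ENSMUSG00000018470, chr11:69326258-69333042, plus strand), was at 809, 869 and 1074 normalized counts in WT, 1166, 1162 and 967 in HET and 1069, 1076 and 1218 in KO. WT replicates 1 and 2 were below every mutant library, and WT replicate 3 lay within both mutant ranges. Its log2 fold change was 0.30 ± 0.13 (SE; unadjusted limma p = 0.0436, adjusted p = 0.999, exact permutation p = 0.2) in KO and 0.26 ± 0.13 (SE) in HET, values that share the same WT mice. Leaving out single libraries gave 0.21 to 0.42 in KO, with the unadjusted p above 0.05 except without WT replicate 3 or HET replicate 3, and at most 0.162.

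KO and WT libraries did not overlap in 2 members, against 4.54% of all genes, 1 higher in KO beside 2.02% and 1 lower beside 2.51%. Kcnn2, a small-conductance calcium-activated channel that shapes the afterhyperpolarization, was at 1006, 1037 and 915 normalized counts in WT and 1054, 1089 and 1251 in KO, a log2 fold change of 0.20 ± 0.12 (SE). Kcne4, an auxiliary subunit, was at 49.3, 39.8 and 39.8 normalized counts in WT and 35.8, 36.8 and 38.6 in KO, a log2 fold change of -0.20 ± 0.21 (SE). In both genes the gap between the groups was smaller than the spread within either group.

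When WT replicate 3 was left out, the count at an unadjusted p under 0.05 was 7 members in place of 1, beside 2.05% of all genes. Kcnab1, Kcnd2, Kcnip2, Kcnj2 and Kcnk2 were then lower in KO, and Kcnab3 and Kcnip1 higher. That library also had low medium spiny neuron markers, and the part these cells play in the result was not tested. Fewer medium spiny neurons and less RNA per neuron cannot be told apart in bulk tissue. With WT replicate 3 and KO replicate 3 both left out, a choice made after seeing the data, 4 members had an unadjusted p under 0.05, beside 2.38% of all genes. These were Kcnab1, Kcnd2 and Kcnk2, lower in KO, and Kcnab3, higher.

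By class, the KO medians were 0.04 for voltage-gated pore subunits, 0.06 for modifiers, 0.03 for auxiliary subunits, 0.05 for inward rectifiers, 0.11 for tandem-pore channels and 0.08 for calcium- or sodium-activated channels, all on the log2 scale. The 95% interval of a member lay wholly within a 2-fold change for 72 of 78 members in each comparison, beside 90.1% of all genes in HET against WT, 90.5% in KO against WT and 90.1% in KO against HET. Within a 1.5-fold change it lay for 53 members in HET and 48 in KO against WT and for 51 in KO against HET, beside 69.4%, 70.5% and 70.9% of all genes. Changes of 2-fold or more were therefore outside the interval for most members, while for many members a smaller change was not detectable with 3 mice.

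**Figure D2:**
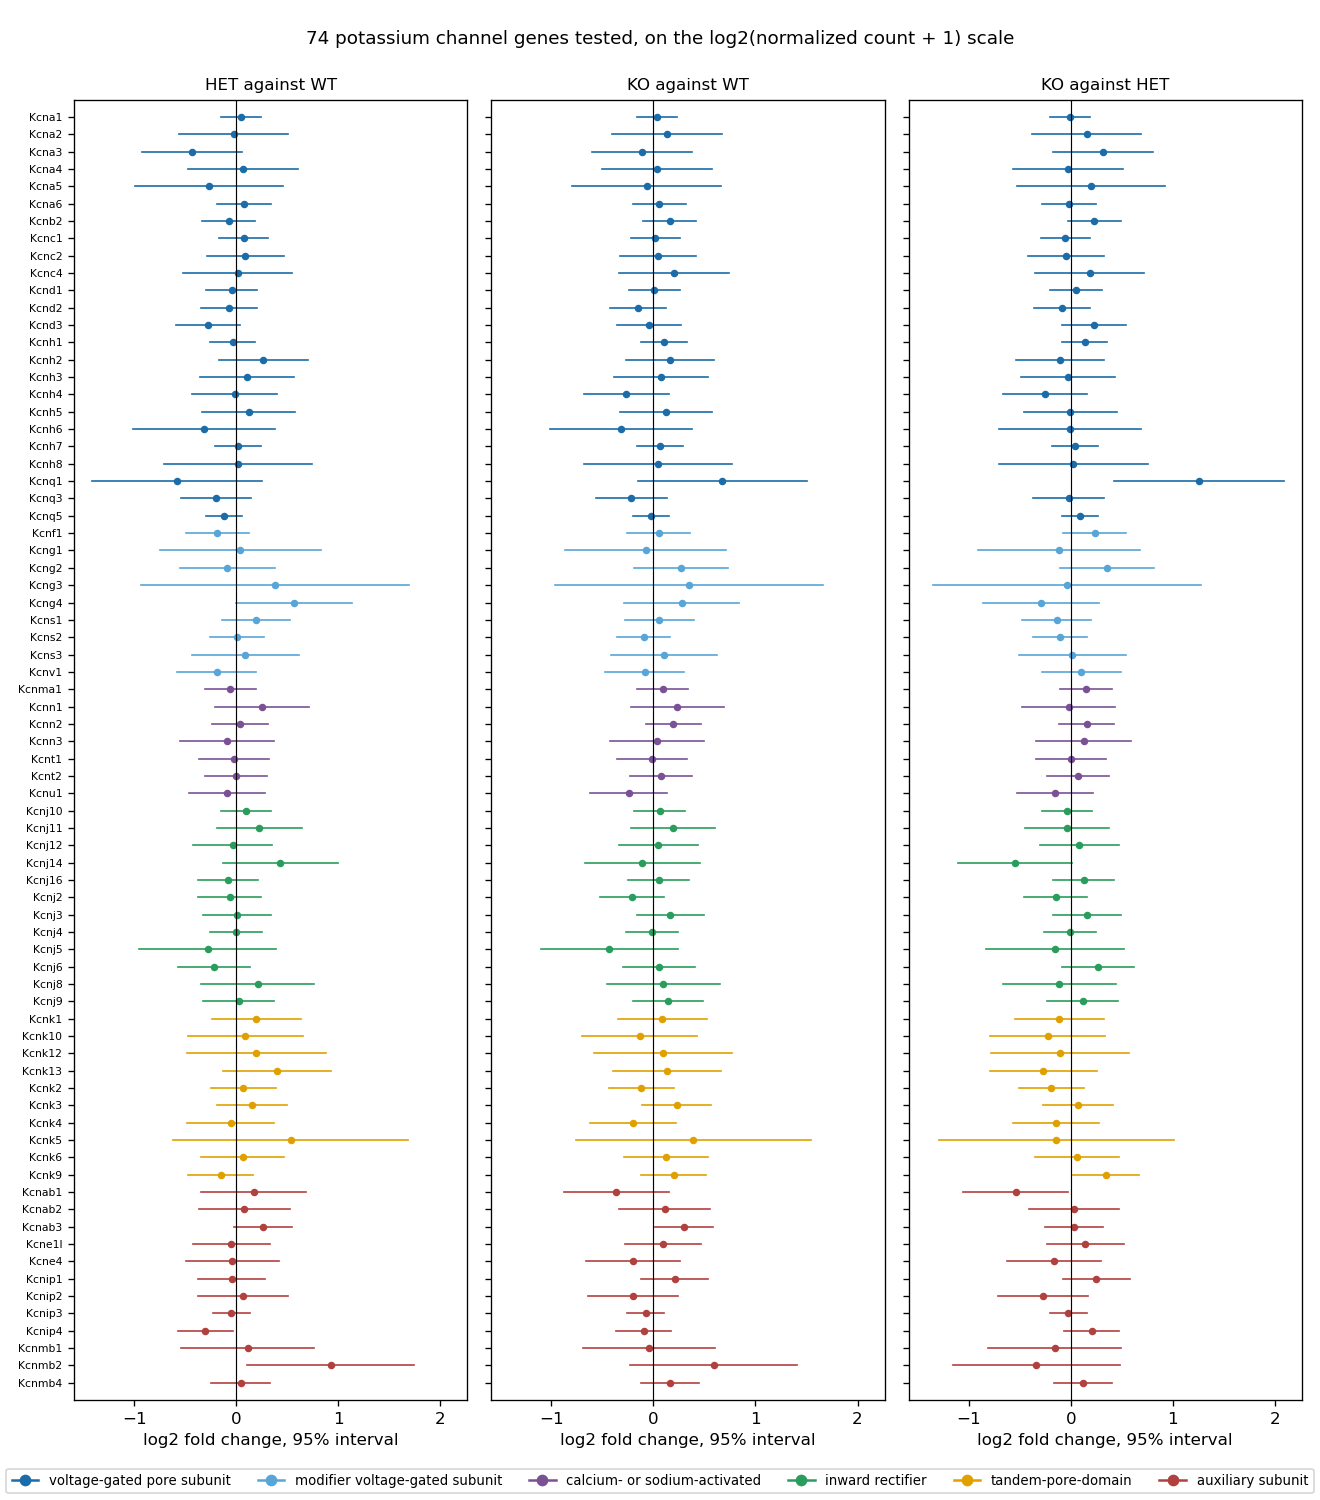
Log2 fold change (points) with the limma 95% interval (lines) of 74 of the 78 members tested, in HET against WT, KO against WT and KO against HET, coloured by class. Nearly all intervals cross 0, and Kcnq1 in KO against HET, at 1.26, is the point farthest from it.

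In KO against HET striatum the count at the adjusted threshold was 0 for members and for all genes (limma, Benjamini-Hochberg, smallest adjusted p of a member 1.00). At an unadjusted p under 0.05 there were 3 members, or 3.85%, beside 186 genes or 1.31% over all genes. Kcnq1 and Kcnk9 were higher in KO, beside 0.744% of all genes, and Kcnab1 was lower, beside 0.562%. The labels do not say what a replicate number means, and it was taken to pair HET with KO mice from correlations in these same data. With the number as a block over all 9 libraries 318 genes or 2.23% and 4 members passed, Kcnj6 being the added one. Without KO replicate 1, and with no block, the count was 7 members, beside 1.9% of all genes. With the block and only HET and KO libraries in the fit, chosen after seeing the data, 705 genes or 4.95% and 13 members or 16.7% passed, still with 0 genes at the adjusted threshold.

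Kcnq1, best known as the cardiac delayed rectifier (ENSMUSG00000009545, chr7:143106362-143427042, plus strand), was at 26.4, 10.8 and 23.2 normalized counts in WT, 9.61, 16.2 and 11.7 in HET and 32.8, 25.1 and 34.9 in KO. The HET and KO libraries did not overlap, and the WT libraries spread over both. KO exceeded HET by 1.26 ± 0.37 on the log2 scale (SE; unadjusted limma p = 0.00707, adjusted p = 1.00, exact permutation p = 0.1), and it ranged from 1.10 to 1.45 when single libraries were left out. At 4.91 ± 2.02 normalized counts per kilobase in WT it had rank 77 of 87 members, and it was left out when the filter was raised to a normalized count of 50. The antisense RNA gene Kcnq1ot1 lies within this locus. The strand setting of the quantification is not given in the sources used here. Whether reads of the 2 genes were kept apart is therefore unknown.

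Kcnk9, an acid-sensitive leak channel (ENSMUSG00000036760, chr15:72501089-72546340, minus strand), was at 464, 369 and 462 normalized counts in WT, 444, 339.5 and 384 in HET and 482, 454 and 545 in KO. Every KO library exceeded every HET library, and the WT libraries lay between and across them. The difference of KO from HET was 0.35 ± 0.14 on the log2 scale (SE; unadjusted limma p = 0.0364, adjusted p = 1.00, exact permutation p = 0.1), beside 0.20 ± 0.14 (SE) for KO against WT. The unadjusted p rose above 0.05 without HET replicate 2 or 3 or KO replicate 1 or 3, up to 0.133 without HET replicate 2, where the log2 difference was 0.25.

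Kcnab1, the beta subunit that speeds the inactivation of Kcna channels (ENSMUSG00000027827, chr3:65109384-65378223, plus strand), was at 8108, 8630.2 and 5038 normalized counts in WT, 8168, 6207 and 9948 in HET and 6634, 5348 and 4645 in KO. HET replicate 3 held the highest value of all 9 and KO replicate 3 the lowest, and KO replicate 1 reached into the HET range. KO differed from HET by -0.54 ± 0.23 on the log2 scale (SE; unadjusted limma p = 0.0421, adjusted p = 1.00, exact permutation p = 0.2), by -0.38 without HET replicate 3 and -0.42 without KO replicate 3. The unadjusted p rose above 0.05 without either of these and without HET replicate 1 or KO replicate 2. The summed medium spiny neuron markers ran from 78745 to 95607 in HET and from 45872 to 82774 in KO, and their part in this difference was not tested.

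**Figure D3:**
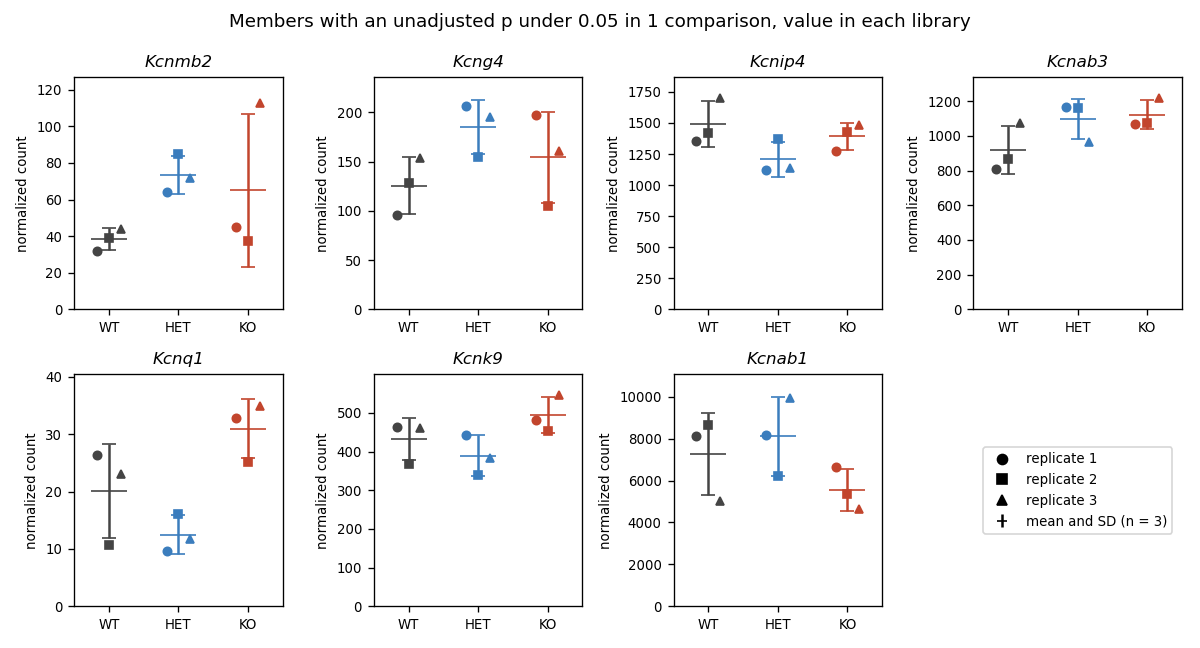
Normalized counts of the 7 members with an unadjusted p under 0.05 in a comparison, by genotype (symbols are the 3 replicates, lines the mean and SD). Kcnmb2 in KO rests on replicate 3 at 113, and the Kcnq1 libraries of HET and KO are separate.

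HET and KO libraries did not overlap in 8 of 78 members, beside 4.45% of all genes. Kcnq1, Kcnk9, Kcnb2, Kcnh1, Kcnma1 and Kcnq5 were higher in KO (2.25% of all genes), and Kcnj14 and Kcnk2 lower (2.19%), of which Kcnb2, Kcnh1 and Kcnj14 are named because they appeared in this count. Kcnk2, a mechanically gated leak channel, was at 3130.3, 3367 and 3561 normalized counts in HET and at 2945, 2924 and 2932 in KO, with WT libraries at 3565, 3692 and 2454. The 3 KO libraries lay closer together than those of WT or HET, and WT replicate 3 was below them. Kcnma1 was at 2135, 1821 and 2059.7 normalized counts in HET and 2147, 2383 and 2139 in KO, a log2 fold change of 0.15 ± 0.11 (SE), and the WT libraries at 2379, 1835 and 2076 reached into both ranges.

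The levels summed over classes stayed within the replicate spread. All members together reached 31062 ± 1522 normalized counts per kilobase in WT, 31625 ± 2495 in HET and 31282 ± 2331 in KO (SD, n = 3), and exact two-sided permutation tests gave p = 0.8 for HET, p = 0.9 for KO against WT and p = 0.7 for KO against HET. For the 6 classes the exact permutation p ran from 0.5 to 1.0 over the comparisons. The tandem-pore sum was 2496 ± 204 in WT, 2802 ± 506 in HET and 2577 ± 383 in KO, with HET replicate 3 at 3378 and KO replicate 3 at 2991 per kilobase the highest of 9. Modifiers were likewise highest in KO replicate 3 at 3164 and HET replicate 3 at 2778 per kilobase, against 2142 to 2529.7 in the other libraries.

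**Figure D4:**
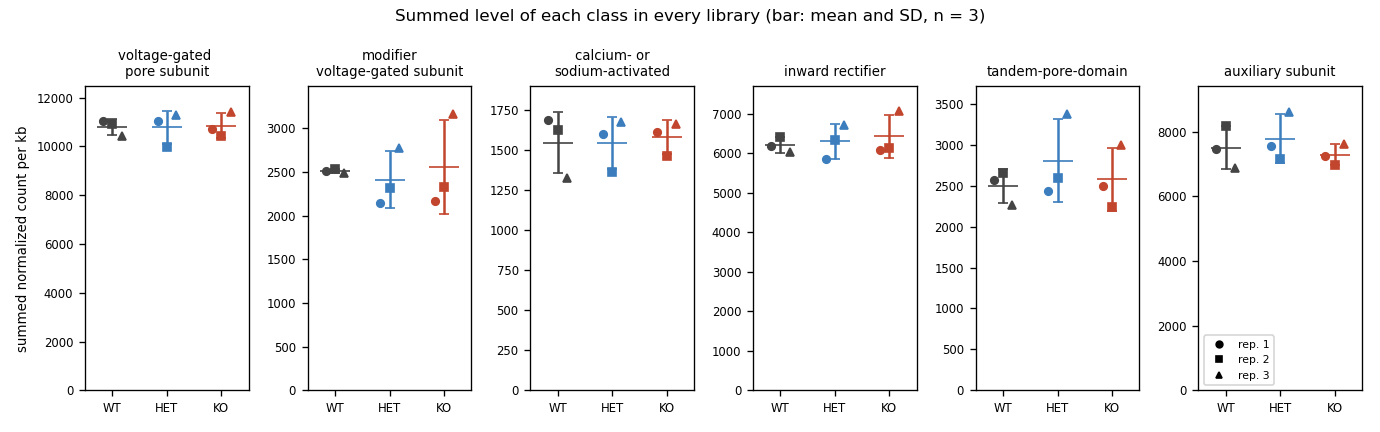
Summed normalized counts per kilobase of each class in every library (symbols are replicates, lines mean and SD of 3). The genotype means are close in each panel, and replicate 3 of HET and KO is the highest pair among modifiers and tandem-pore channels.

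HET replicate 3 and KO replicate 3, the libraries apart on the first component, were the 2 highest of 9 in 16 members, or 20.5%, beside 19.2% of all genes. They were the 2 lowest in 4 members, or 5.13%, beside 16.4% of all genes. The high ones included Kcnk1, Kcnk3 and Kcnk12, Kcnj8, Kcnj9, Kcnj11 and Kcnj12, and Kcnh2 and Kcnh3, and the low ones were Kcnq3, Kcna5, Kcnh5 and Kcnh6, all named after their values were seen. Kcnq3, a pore subunit of the M-current, was at 8379, 8033 and 6561 normalized counts in WT, 7505, 7168 and 5488 in HET and 7232, 7047 and 5535 in KO. KO replicate 3 alone held the highest value of 9 in 23 members, or 29.5%, against 16.3% of all genes.

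WT replicate 3 and KO replicate 3, the libraries with the lowest medium spiny neuron markers, were the 2 lowest of 9 in Kcna4, Kcnab1, Kcnd2, Kcnip2 and Kcnj2, which is 6.41% of members beside 3.74% of all genes. These 5 genes include the pore and partner of the transient current, Kcnd2 and Kcnip2, another transient channel, Kcna4, and an inward rectifier, Kcnj2. Other members of the same kinds did not share this order. Kcnip4, also a partner of Kcnd channels, had its 2 highest values in this pair, 1699 and 1481. Kcnd3 was at 1986 in WT replicate 3 and 1793 in KO replicate 3, and Kcnj4 at 4980.5, its lowest of 9, and 5961. Kcnip2 was at 7122, 8296 and 4866 normalized counts in WT, 7926, 6154 and 6805 in HET and 6879, 5754 and 4769 in KO. Kcnd2 was at 4456, 4351 and 3243 in WT, 3880.2, 3784 and 3716 in HET and 3746, 3698 and 3286 in KO. Kcna4 was at 1523, 1346 and 836 in WT, 1649.8, 1056 and 1122 in HET and 1439.9, 1284 and 999 in KO. All 3 genes were low in 1 WT and 1 KO mouse, and Kcnip2 and Kcnd2 had KO differences of -0.20 ± 0.20 and -0.16 ± 0.12 on the log2 scale (SE).

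The same pair of libraries was the 2 highest of 9 in 8 members, or 10.3%, beside 3.45% of all genes, among them Kcnb2, Kcnc2, Kcnh7, Kcnip4, Kcnj3, Kcnj6 and Kcnmb4. Kcnj3, the obligate partner in many G-protein-gated channels, was at 2972, 2711 and 3530.3 normalized counts in WT, 2793, 3263 and 3157 in HET and 3126, 3004 and 4284 in KO. Summed cortical neuron markers were highest in the same pair, and their part in these values was not tested.

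**Figure D5:**
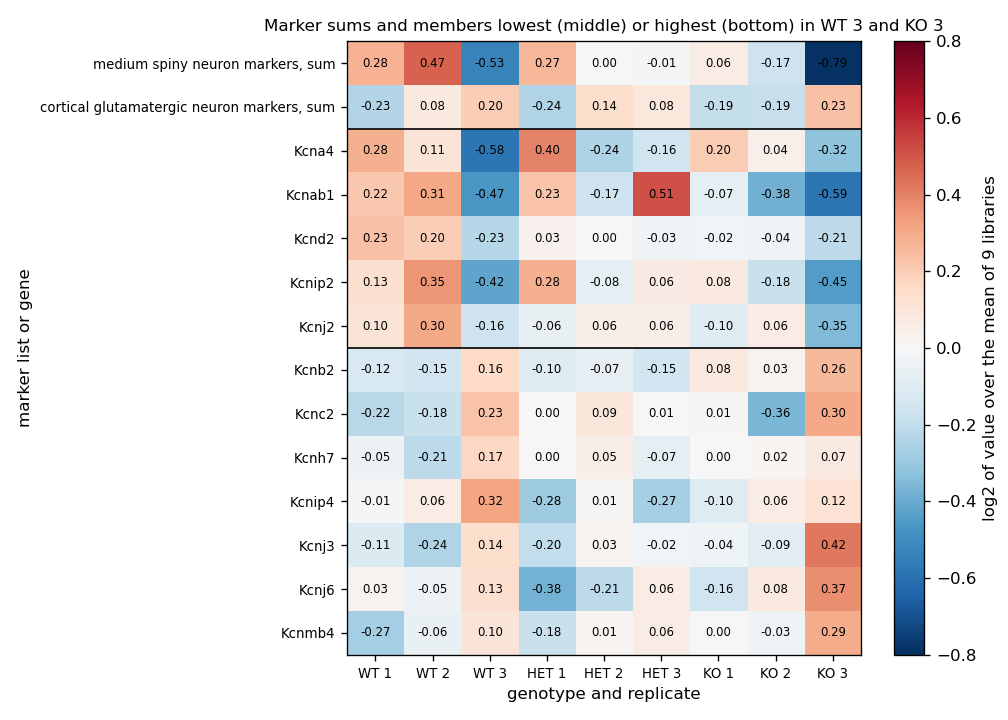
Log2 of each library's value over the mean of the 9 libraries for 2 marker sums (top), for the 5 members lowest in WT replicate 3 and KO replicate 3 (middle) and for 7 of the 8 members highest there (bottom). In KO replicate 3 the medium spiny neuron sum is at -0.79, with Kcnab1 at -0.59 and Kcnj3 at 0.42.

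Kcnj4, Kcna1 and Kcnh4, channels known from striatal neurons, had overlapping libraries in all 3 comparisons. Kcnj4 was at 6236, 6278 and 4980.5 normalized counts in WT, 5221, 5879 and 6306 in HET and 5437, 5848 and 5961 in KO. Its log2 fold change was 0.00 ± 0.11 (SE) in HET and -0.01 ± 0.11 in KO, with a 95% interval in KO from -0.27 to 0.24. Kcna1 was at 7348, 6935 and 7048 in WT, 7775, 6699.8 and 7581 in HET and 7412, 7109 and 7359 in KO normalized counts, with a 95% interval of its KO log2 fold change from -0.16 to 0.23. Kcnh4, an ether-a-go-go type channel of the forebrain, was at 1743, 1959.5 and 1373 in WT, 1868, 1299 and 1871 in HET and 1689, 1214 and 1314 in KO normalized counts, a KO log2 fold change of -0.27 ± 0.19 (SE). Its KO range overlapped the WT range.

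Of the other textbook channels of striatal cells, Kcna2, Kcnc1, Kcnq5, Kcnt1, Kcnn3, Kcnj10 and Kcnj16 had KO log2 fold changes between -0.03 for Kcnq5 and 0.13 for Kcna2. None had an unadjusted p under 0.05 in any of the 3 comparisons.

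The leading members of the remaining subfamilies, taken by their mean level per kilobase over the 9 libraries, also had no unadjusted p under 0.05. Kcnab2 was at 10553, 12623 and 11281 normalized counts in WT, 10162, 10701 and 16271 in HET and 10637, 11168 and 15888 in KO. Kcnk1 was at 3221, 3349.6 and 2848 in WT, 2955, 3217 and 4866 in HET and 3227, 2739.9 and 4158 in KO. In both genes replicate 3 of HET and KO stood above all other libraries. Kcng1, a modifier of Kcnb channels, showed the same order more steeply, at 1610.3, 1963 and 1686 in WT, 1331, 1348 and 3238 in HET and 1159.5, 1519 and 2596 in KO normalized counts, and its log2 fold changes of 0.04 ± 0.35 (SE) in HET and -0.07 ± 0.35 in KO carry that spread. Kcnf1, a silent modifier subunit, had log2 fold changes of -0.19 ± 0.14 (SE) in HET and 0.05 ± 0.14 in KO. Kcnc4, a pore subunit of fast high-threshold channels, had 0.01 ± 0.24 (SE) in HET and 0.20 ± 0.24 in KO. Kcnmb4, the neuronal beta subunit of the large-conductance channel, had 0.04 ± 0.13 (SE) in HET and 0.17 ± 0.13 in KO. Kcnn1, a small-conductance calcium-activated channel, had 0.25 ± 0.21 (SE) in HET and 0.23 ± 0.21 in KO. Kcnu1, a relative of Kcnma1 best known from sperm, was low at 39.8 ± 4.21 normalized counts per kilobase in WT and had a KO log2 fold change of -0.24 ± 0.17 (SE). Kcne1l, an auxiliary subunit, had a KO log2 fold change of 0.09 ± 0.17 (SE).

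Of 27 listed genes outside the Kcn symbols whose products bind, anchor or accompany these channels, 25 were tested, and 0 had an unadjusted p under 0.05 in any comparison. Their median log2 fold change was -0.01 in HET, 0.05 in KO and 0.00 in KO against HET. Dpp6, the transmembrane partner of Kcnd channels, had a log2 fold change of -0.05 ± 0.10 (SE) in KO. Ank3, the ankyrin that holds Kcnq channels at the axon initial segment, had -0.24 ± 0.13 (SE) in KO and -0.22 ± 0.13 (SE) in HET. Hcn4, a hyperpolarization-activated cation channel, had the widest KO against HET value, 0.48 ± 0.31 (SE).

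Of the 87 members, 6 lie on chromosome 15, which carries Shank3: Kcnh3, Kcnj4, Kcnk9, Kcnq3, Kcnv1 and Kcns2. The nearest, Kcnh3, starts 9.665 Mb from the Shank3 gene body and Kcnj4 ends 9.994 Mb from it. Their KO log2 fold changes ran from -0.22 for Kcnq3 to 0.20 for Kcnk9.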

How the data were processed

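Striatal RNA of 9 mice, 3 per genotype, was sequenced as stranded poly(A) libraries, 1 mouse per library. Per the study's methods and the submitters' processing notes, the authors quantified transcripts with Salmon 0.9.1 against GRCm38 with GC-bias correction, summarised them to genes with tximport and divided them by DESeq2 1.19.11 size factors in R 3.6.0. The deposited signal values are these normalized counts, which need not be whole, and the strand setting of the quantification and the sequencing depth are not given in the sources used here. All 9 deposited columns were used, and 0 were left out. Of 15464 gene identifiers, 15457 matched a symbol in the GRCm38 annotation.

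The filter on low values, 10 or more in 3 or more libraries, left 14239 genes for testing. As the values are normalized, a count model was not run on them, and limma 3.58.1 with a trended variance in R 4.3.3 was fitted to log2(value + 1) over all 9 libraries, so fold changes of low genes are understated. P-values were adjusted over all genes by Benjamini-Hochberg at a threshold of 0.05. Sums over classes were compared by two-sided exact permutation tests, whose smallest p with 3 against 3 libraries is 0.1, in Python 3.11.15 with scipy 1.17.1. Levels per kilobase used the union of exons. The fit was tested on simulated data. Nothing in the labels pairs mice across genotypes beyond the replicate number. Deviations from the genotype means correlated between same-numbered HET and KO libraries at 0.52, 0.28 and 0.51. The values were 0.24, -0.22 and 0.02 between WT and KO and 0.32, -0.01 and 0.01 between WT and HET. From these same data the numbers were taken to pair HET with KO only, which the labels do not state. The block fit over all 3 genotypes nevertheless blocked the WT libraries too.

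The members, gene lists and tests were chosen with earlier results of these data known. Genes named were the leading member of each subfamily by level, members with an unadjusted p under 0.05, up to 6 further members per comparison with WT whose libraries did not overlap, and textbook channels of striatal cells. Values of 4 members are not reported here, though they stay in all counts, medians and sums. Other members named in counts were chosen after their values were seen. Alternatives were other filters, pseudocounts, scalings and variance priors, array weights, fits of 2 genotypes, the replicate number as a block and leaving out libraries.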

Additional observations from a re-analysis of the deposited data

How the results depend on the processing

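No gene passed an adjusted p of 0.05 in any comparison under the 23 alternatives, the replicate block included (limma, Benjamini-Hochberg). With 3 mice per genotype and a median standard error of 0.17 on the log2 scale over the members, small differences were not detectable, and the unknown depth gives no interval for low genes. In HET against WT the count of members at an unadjusted p under 0.05, 3 as reported, was 6 without HET replicate 3 and KO replicate 3 (1.93% of all genes) and ran from 1 to 4 when single libraries were left out. In KO against WT, 1 as reported beside 0.822% of all genes, it was 2 with no filter (1.01% of all genes), 0 after rescaling the libraries, 0 after quantile normalization, 0 without a trend in the variance, 3 with the replicate block (2.18%), 4 with the block and only 2 genotypes (1.78%), 2 without HET replicate 3 and KO replicate 3 (1.54%), 4 without WT replicate 3 and KO replicate 3 (2.38%), and 0 to 7 when single libraries were left out, 7 being without WT replicate 3 (2.05%). In KO against HET, 3 as reported, it was 4 with the replicate block (2.23%), 13 with the block and only 2 genotypes (4.95%), and 2 to 7 when single libraries were left out, 7 being without KO replicate 1, where 1.9% of all genes passed. The members' median log2 fold change in KO against WT, 0.05 as reported, was -0.0241 without HET replicate 3 and KO replicate 3, -0.00425 without WT replicate 3 and KO replicate 3, and -0.0241 (without KO replicate 3) to 0.0622 when single libraries were left out. The same range was -0.02 to 0.06 in HET against WT and -0.0268 to 0.0546 in KO against HET. Signs turned for KO values near 0: Kcna4, 0.04 as reported, was -0.0738 without WT replicate 3 and KO replicate 3 and ran from -0.22 to 0.21 when single libraries were left out, and Kcnj4 ran from -0.12 to 0.0437. The choices to leave out WT replicate 3 with KO replicate 3 and to combine the block with 2 genotypes were made after seeing the data. Leaving out HET replicate 3 with KO replicate 3 was planned, but with earlier results of these data known. The cause of these shifts was not tested.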
